A study of Mus with 50 samples.

Results

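Serpina1d, a mouse gene for alpha-1 antitrypsin, gave either a high or a low signal in each of 50 mouse livers, with no liver in between. The 2 sets of livers were compared over all other named genes. The platform annotation gave Serpina1d 1 probe set (probe set 17283617, gene ID 20703, chromosome 12). Livers below log2 9 on it formed the low group, and livers at 9 or above formed the high group. The low group held 20 of the 50 livers and the high group the other 30. All 50 were livers of female mice from a C57xFVB backcross that carried the MMTV-Neu transgene, a proto-oncogene under a mammary tumour virus promoter that acts in the mammary gland, and all were labelled with breast cancer as comorbidity. The series design drew the livers from mice at the extremes of a grade of ageing, but the labels used here place no single mouse on that grade and give neither an age nor a genotype at any locus. Low and high are therefore defined by the measured signal alone, and ageing grade was not compared. Each liver had 1 array and is named by its animal number.

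Alpha-1 antitrypsin is made mainly by hepatocytes, is secreted into the plasma and inhibits serine proteases, above all neutrophil elastase. Mice carry several near-identical Serpina1 genes side by side, within a cluster of related serpin genes on chromosome 12, and their number differs between inbred strains. In a backcross, genes that lie near each other on a chromosome tend to be inherited together.

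The arrays gave log2 signals from 1.45 to 13.54, and array medians lay between 3.27 and 3.34. All 14 hepatocyte markers were measured. Alb, which encodes albumin, ran from 13.20 to 13.54, whereas Ass1, a urea cycle enzyme, gave a weak signal of 2.99 to 7.08. Animals 64 and 87 of the low group and animals 84 and 235 of the high group had the lowest median correlations with the other livers over the genes at or above the median level, at 0.794, 0.932, 0.903 and 0.857. The other livers lay between 0.944 and 0.978. Over all genes the order differed: animals 64, 235 and 84 were still the lowest, but animals 96 and 161 came before animal 87. Values without these livers are given beside some of the results that moved with them.

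Serpina1d ran from 3.80 to 6.72 in the low livers, with a median of 5.59, and from 11.09 to 12.15 in the high livers, with a median of 11.84. The groups averaged 5.67 ± 0.72 (SD, n = 20) and 11.80 ± 0.25 (SD, n = 30). This is a difference of -6.13 in log2, or a 69.9-fold higher signal in high livers, and it describes the choice of the groups. The low livers closest to the boundary were animals 257 and 40, at 6.72 and 6.52. The high livers closest to it were animals 84 and 235, at 11.09 and 11.18, so 4.37 log2 units between the groups were empty. Boundaries at 8 and at 10 gave the same groups.

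The 4 near-identical copies were described without a test, because their probes can share sequence with the probe set that chose the groups. Serpina1e ran from 8.0 to 9.76 in low livers, with a median of 9.13, and from 8.81 to 11.63 in high livers, with a median of 10.38. Its difference was -1.18, and the groups overlapped. High livers 301, 101, 60, 84 and 7 had Serpina1e values of 8.81, 8.83, 8.96, 9.18 and 9.39, at or below the highest low liver, although their Serpina1d values were between 11.09 and 11.94. The differences were -0.38 for Serpina1a, -0.17 for Serpina1b and -0.08 for Serpina1c, and the groups overlapped for each. How far probes of one copy bind transcripts of another was not tested.

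**Figure D1:**
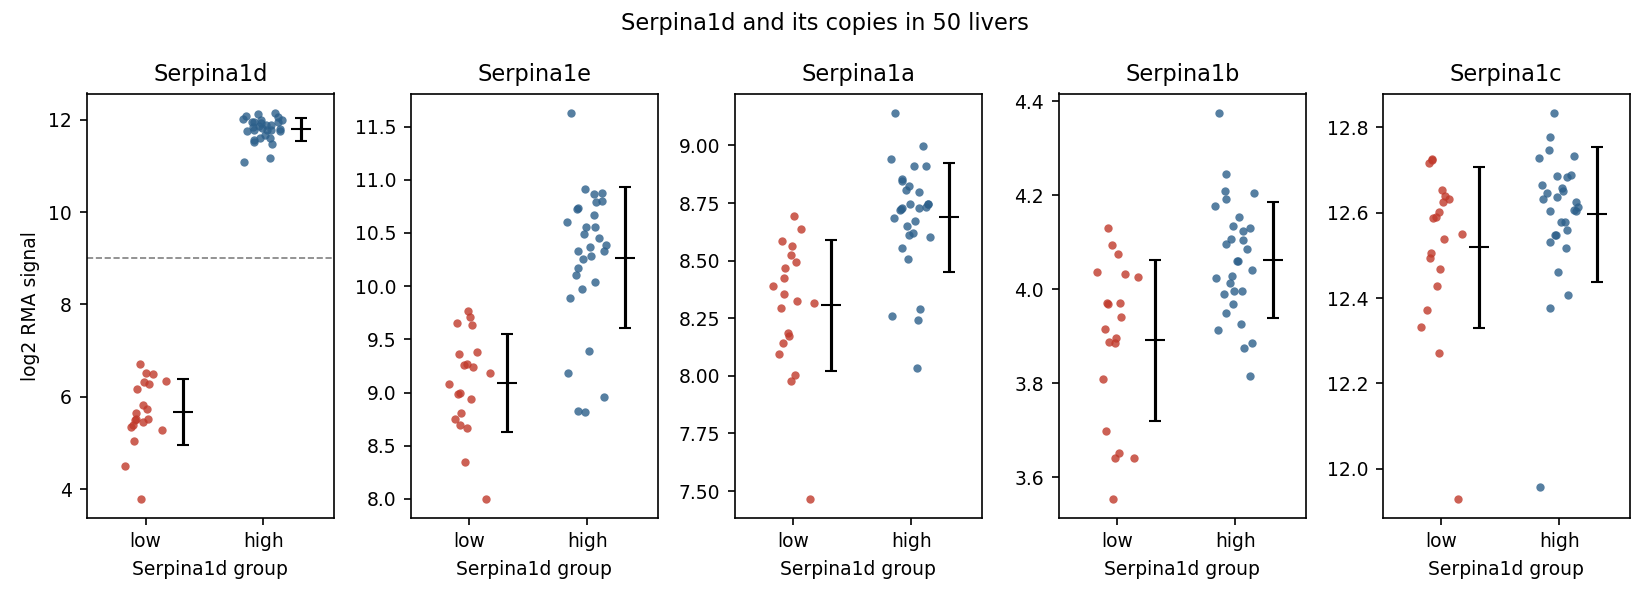
Log2 RMA signal of Serpina1d and its 4 near-identical copies in 20 low livers (red) and 30 high livers (blue). Points are livers, bars show the mean ± SD, each panel has its own axis, and the dashed line marks log2 9. Serpina1d leaves a gap of 4.37 between the groups, and the groups overlap for all 4 copies.

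The low livers were spread over the animal numbers. Ranges of animal numbers that differed in earlier work on these data held 3 low and 5 high livers in animals 7 to 79, 6 and 7 in animals 84 to 128, 8 and 8 in animals 137 to 235, and 3 and 10 in animals 253 to 301. The animal number averaged 152.4 ± 69.9 (SD, n = 20) in the low group and 175.4 ± 93.8 (SD, n = 30) in the high group (two-sided permutation test of the means, 100000 resamples, p = 0.354). The Serpina1d difference within these ranges was -5.91, -6.10, -6.36 and -5.68.

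Over the rest of the transcriptome, 1 of 22175 named genes differed at an adjusted p under 0.05 in limma's moderated test with Benjamini-Hochberg adjustment, which is 0.00451% of the genes. At an unadjusted p under 0.05 there were 681 genes, or 3.07%, with 445 lower (2.01%) and 236 higher (1.06%) in low livers. The difference of the middle gene was 0.04 in size, and 95% of genes lay below 0.16. Over all 41340 probe sets, named or not and without those of the 5 Serpina1 genes, 2 were called (0.00484%), 1 of them without a gene symbol. For no tested gene did the low and high livers fail to overlap (0 of 22175, 0.0%).

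The called gene was 5033406O09Rik, a long noncoding RNA on chromosome 12, 284 gene positions from Serpina1d in the RefSeq gene order. It ran from 4.92 to 5.63 in low livers, with a median of 5.26, and from 5.25 to 6.03 in high livers, with a median of 5.74. Low livers sat at the lower end, and the groups overlapped. It fell by 0.39 in low livers (SE 0.06, 95% CI -0.51 to -0.27, limma adjusted p = 0.00102). Within the 4 ranges of animal numbers the difference was -0.51, -0.34, -0.23 and -0.55.

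Tc2n, which encodes a protein with tandem C2 domains, lies 50 positions before Serpina1d, and 1 liver decided its test. It was not called in the fit of all livers, and it is named here because of its values. In 19 of the 20 low livers Tc2n ran from 2.67 to 3.20, with a median of 2.98, and low animal 161 stood at 9.29. High livers ran from 3.22 to 4.73, with a median of 3.82. Apart from animal 161, the highest low liver thus lay just below the lowest high liver. These 19 low livers and the lowest high liver lay below the lowest array median of 3.27, so their Tc2n signal was weak. With all 50 livers the difference was -0.51 (SE 0.26, limma p = 0.0558, adjusted p = 1.0). The rank sum test, which was planned as an alternative, called Tc2n with all livers included (Wilcoxon, adjusted p = 0.0021), and that test called 2 genes, 0.00902% of those tested. Without animal 161, a liver left out because of its Tc2n value, the difference was -0.83 (SE 0.09, 95% CI -1.02 to -0.64, limma adjusted p = 1.81e-07), and that fit also called 2 genes, 0.00902%. Within the 4 ranges the differences were -0.53, -0.98, -0.08 and -0.90, and the third range holds animal 161.

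Animal 161 also carried signals of milk protein genes. Csn2, the beta casein gene, stood at 12.05 in it, against at most 3.15 in the other livers. Csn3 stood at 11.07, against at most 3.99, and Csn1s1 at 8.45, against at most 2.62. Erbb2, the mouse gene of the proto-oncogene Neu, stood at 9.65 in animal 161, against at most 5.36 in the other livers. Of the 6 mammary markers, 5 were measured and 3 were highest in animal 161. The milk protein gene Wap, at 3.51, and the basal keratin gene Krt14, at 2.83, lay within the range of the other livers. The mean of the 5 measured markers was 7.58 in animal 161, between 2.61 and 3.06 in the other low livers and between 2.52 and 2.83 in high livers. The part of these signals in the Tc2n value of animal 161 was not tested.

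**Figure D2:**
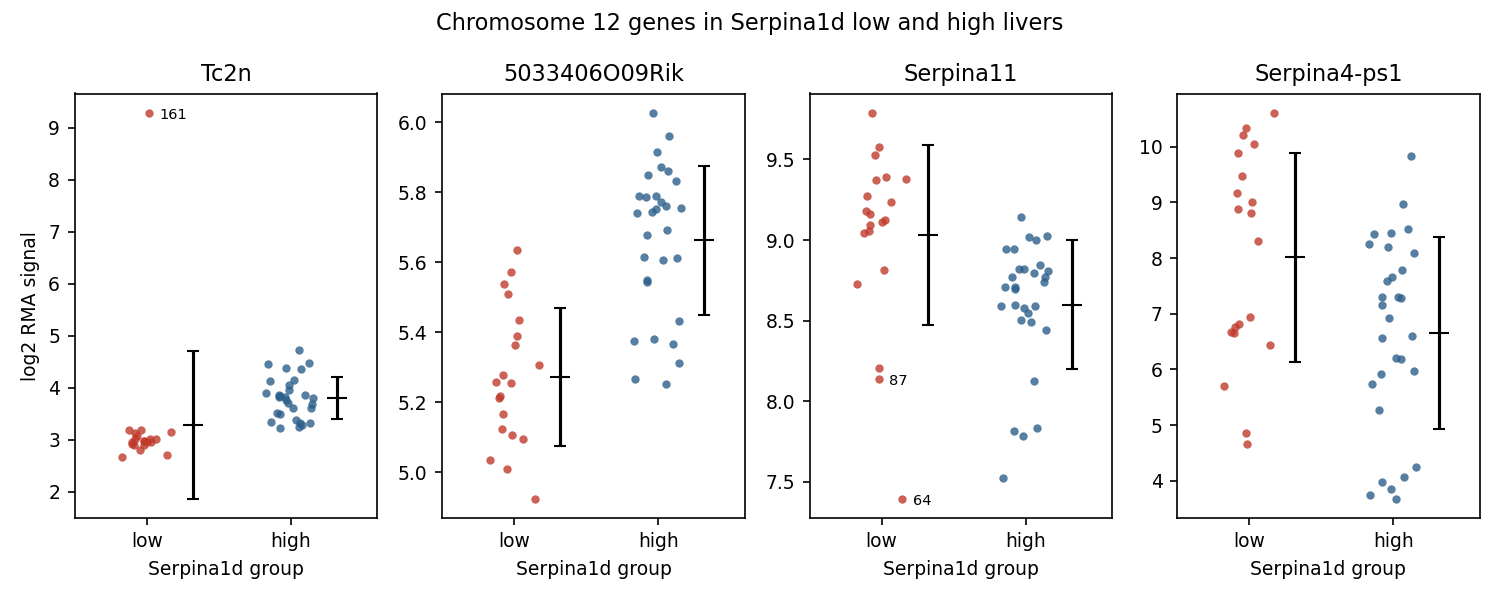
Log2 RMA signal of 4 chromosome 12 genes in 20 low livers (red) and 30 high livers (blue), with points as livers, bars as mean ± SD and an axis for each panel. Low livers lie below high livers for Tc2n except animal 161 at 9.29, lie lower with overlap for 5033406O09Rik, and lie higher with overlap for Serpina11 and Serpina4-ps1.

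Among the serpins next to Serpina1d, Serpina11 and the pseudogene Serpina4-ps1 had the 2 smallest p-values, and neither passed the adjusted test. Serpina11, 9 positions away, encodes a serpin of the same clade. It ran from 7.40 to 9.79 in low livers, with a median of 9.14, and from 7.52 to 9.14 in high livers, with a median of 8.71. Most low livers stood above most high livers, and the lowest low values belonged to livers that include animals 64 and 87. The difference was 0.43 (SE 0.13, 95% CI 0.16 to 0.70, unadjusted p = 0.00204, limma adjusted p = 1.0). It was 0.52 without the 4 livers that stand apart (limma adjusted p = 0.0738) and 0.54 without those and animal 161 (limma adjusted p = 0.0324), a set of livers chosen after the data were seen. Within the ranges it was 0.07, 0.40, 0.55 and 0.63.

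Serpina4-ps1, 13 positions away, had the largest difference in size of all 22175 genes. It ran from 4.67 to 10.61 in low livers, with a median of 8.56, and from 3.68 to 9.84 in high livers, with a median of 7.04. The groups overlapped over most of this span. The difference was 1.35 (SE 0.50, 95% CI 0.36 to 2.35, unadjusted p = 0.00867, limma adjusted p = 1.0), and within the ranges it was 0.78, 0.75, 1.17 and 2.88.

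The other clade A serpins gave no call. Of the 26 listed genes, 5 were Serpina1d and its copies, 15 others were tested, 0 of these 15 passed the adjusted test and 2 had an unadjusted p under 0.05. Over all tested genes these shares were 0.00451% and 3.07%, so 0 calls among 15 genes is near the background. Their median difference was 0.05, against -0.01 over all tested genes. Serpina1f, Serpina3a, Serpina3b, Serpina3i, Serpina3j, Serpina5, Serpina9 and Serpina16 gave weak signals. Their medians in high livers lay between 2.50 and 2.95, below the lowest array median of 3.27. Serpina12, which encodes the adipokine vaspin, differed by 0.24 (95% CI -0.09 to 0.56). Serpina6, which encodes the corticosteroid-binding globulin, differed by 0.11 (95% CI -0.46 to 0.67), and Serpina10, which encodes an inhibitor of coagulation factor Xa, by 0.10 (95% CI -0.14 to 0.34). Serpina9 differed by 0.09 (95% CI -0.01 to 0.19). Serpina3n, an acute phase serpin, differed by -0.04 (95% CI -0.34 to 0.25). Serpina7 on chromosome X, which encodes the thyroxine-binding globulin, differed by 0.32 (95% CI -0.16 to 0.80). Serpina1f differed by -0.20 (95% CI -0.59 to 0.19) and by -0.04 without high animal 84, which stood at 7.79 where the next highest liver reached 3.31. Of 25 serpins of other clades, 22 were tested, 0 passed and 0 had an unadjusted p under 0.05, also near the shares over all genes. Among them Serpinb1a, an inhibitor of neutrophil proteases, differed most, by -0.45 (95% CI -1.03 to 0.14). Several of these 22 were also weak, such as Serpinb3a and Serpinb2, with medians of 2.14 and 2.42 in high livers. For serpins with so weak a signal, the lack of a call does not show unchanged expression.

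Along chromosome 12, 1 of 753 tested genes passed the adjusted test and 38 had an unadjusted p under 0.05. That share, 5.05%, was the highest of 20 chromosomes beside 3.07% over all genes, and chromosome X followed at 4.64%. Within 50 positions of Serpina1d, 46 genes were tested, 0 passed and 5 had an unadjusted p under 0.05 (10.9%). These 5 were Serpina11, Serpina4-ps1, Prima1, Fbln5 and Mir1936. Prima1, which anchors acetylcholinesterase in membranes, differed by -0.09, and its group means within the ranges of animal numbers lay between 2.61 and 2.80. Fbln5, an elastic fibre protein, differed by 0.25, and Mir1936 by -0.08. The group means of Mir1936 within the ranges lay between 2.27 and 2.42. The signals of Prima1 and Mir1936 were thus weak, below the array medians of 3.27 to 3.34. Fbln5 and Mir1936 are named here because of their values.

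Unadjusted p-values under 0.05 were also found farther away. More than 200 and up to 400 positions after Serpina1d, 9 of 83 genes had one (10.8%), and more than 50 and up to 200 positions after it 3 of 82 did (3.66%). More than 400 positions after it 3 of 23 did (13%). Before Serpina1d the counts were 2 of 46 (4.35%) up to 200 positions away and outside the nearest 50, 1 of 87 (1.15%) up to 400 and 15 of 386 (3.89%) beyond. The share thus did not fall steadily with distance. Beside 5033406O09Rik lie Zfyve21, which encodes a phosphoinositide-binding protein, at 277 positions, and Aspg, an asparaginase, at 290. Zfyve21 ran from 6.05 to 7.06 in low livers, with a median of 6.60, and from 6.09 to 7.58 in high livers, with a median of 6.97. Its difference was -0.35 (SE 0.09, unadjusted p = 0.000161), and that of Aspg was -0.38 (SE 0.14, unadjusted p = 0.00843). Neither passed the adjusted test. Before Serpina1d, the potassium channel gene Kcnk10 differed by -0.32 at 108 positions and 4930404H11Rik by -0.29 at 592. Rad51b, a gene of homologous recombination, differed by 0.23, and Klhdc2, a substrate receptor of a ubiquitin ligase, by 0.22. Mir377, with weak group means between 2.21 and 2.47 within the ranges of animal numbers, differed by 0.11. D430020J02Rik differed by 0.28 and A530016L24Rik by 0.16. None of these genes passed the adjusted test.

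**Figure D3:**
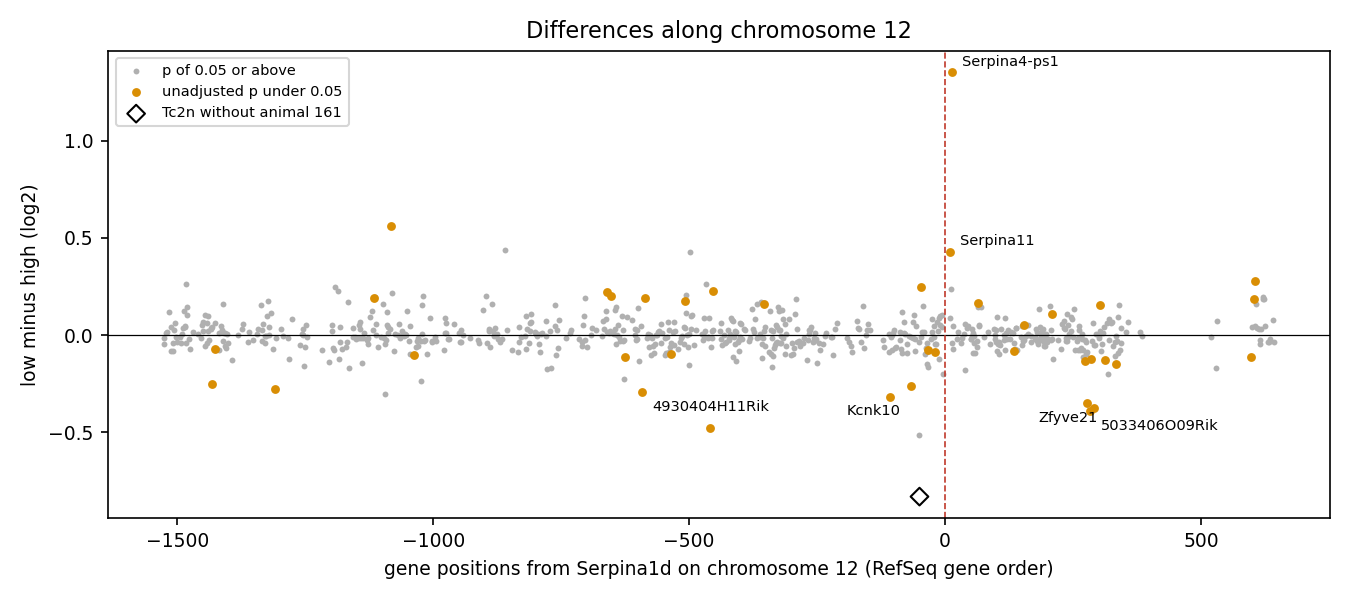
Difference between low and high livers (low minus high, log2) for 753 tested genes of chromosome 12 against the number of gene positions from Serpina1d (dashed line). Orange points have an unadjusted p under 0.05, and the diamond is Tc2n without animal 161. Serpina4-ps1 stands highest at 1.35, and 5033406O09Rik at -0.39 lies 284 positions away.

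**Figure D4:**
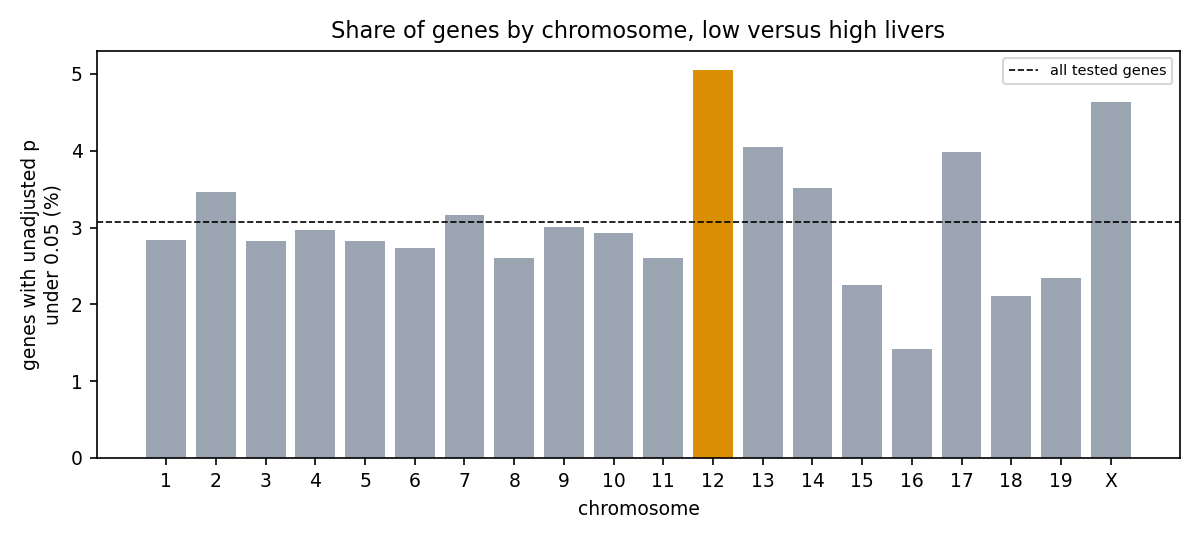
Share of tested genes with an unadjusted p under 0.05 between low and high livers, by chromosome, in percent. The dashed line is the share over all tested genes, 3.07%, and chromosome 12 (orange) has 5.05%.

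Off chromosome 12 no gene passed. The smallest p-values belonged to Zfp599, which differed by 0.22, and Ppp1r17, which differed by 0.17. Within the ranges of animal numbers the group means of Zfp599 lay between 2.89 and 3.35 and those of Ppp1r17 between 3.24 and 3.63. Both signals were thus weak, beside array medians of 3.27 to 3.34. Vwf, which encodes von Willebrand factor, ran from 4.20 to 6.83 in low livers, with a median of 4.63, and from 4.09 to 4.89 in high livers, with a median of 4.36. Its difference was 0.55 (SE 0.14, unadjusted p = 0.000302, limma adjusted p = 1.0). Pax5, a B cell transcription factor, differed by -0.25, Lum, a matrix proteoglycan, by 0.36, 9430083A17Rik by 0.26 and 1700108J01Rik by -0.13. The group means of 1700108J01Rik within the ranges were weak, between 2.45 and 2.68. Erbb2 differed by 0.15 (95% CI -0.37 to 0.66) and by -0.16 without animal 161.

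No gene list gave a call, whether tied to alpha-1 antitrypsin or to cell types and other pathways. The 26 lists held 413 genes, of which 353 were tested, 0 passed and 6 had an unadjusted p under 0.05 (1.7%, against 3.07% over all tested genes). Over all 22175 tested genes 1 passed (0.00451%). A count of 0 in a list is thus near the background and is not a result about that list. Of 19 listed proteases, which are serine proteases and the metalloproteases Mmp9 and Mmp12, 0 passed. The neutrophil elastase gene Elane differed by 0.03 (95% CI -0.22 to 0.28). Of 16 regulators of hepatocyte transcription 0 passed, and Hnf4a differed by -0.12 (95% CI -0.33 to 0.10). Of 32 genes for folding and export of secreted proteins 0 passed, and the chaperone gene Hspa5 differed by -0.01 (95% CI -0.24 to 0.22). Of 21 acute phase genes and 22 plasma protein genes 0 passed, and Alb differed by -0.00069 (95% CI -0.06 to 0.06). Several of these lists moved without the 4 livers that stand apart, still with 0 calls. Of the 32 folding and export genes 2 were then lower in low livers, against 13, with medians of 0.069 and 0.0059. It was 2 against 7 of 19 proteases and 4 against 9 of 21 acute phase genes. Of 10 cholesterol synthesis genes 1 was then lower, against 6, with medians of 0.13 and -0.01.

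Some lists leaned one way without a call. All 8 tested B cell and plasma cell genes were lower on average in low livers, with a median difference of -0.22, and the mean signal of the list ran from 3.48 to 4.30 in low livers and from 3.33 to 6.11 in high livers. For Kupffer cell genes it was 12 of 13, with a median of -0.14. Without the 4 livers that stand apart it was also 12 of 13, with a median of -0.13, but without high animal 235 alone it was 10 of 13, with a median of -0.05. The mean signal of that list ran from 6.13 to 8.13 in low livers and from 6.41 to 9.96 in high livers, the highest value being that of animal 235. Clec4f, a Kupffer cell lectin, differed by -0.26 (95% CI -0.57 to 0.05). Of 22 antioxidant genes 19 were lower, with a median of -0.09, and Gstm1, a glutathione transferase, differed by -0.20 (95% CI -0.42 to 0.01). Of 13 xenobiotic genes 12 were lower, with a median of -0.14. Of 14 hepatocyte genes 11 were lower, with a median of -0.04. Other lists leaned higher in low livers. All 3 tested erythroid genes were higher, with a median of 0.33. So were 10 of 14 neutrophil genes, with a median of 0.03, and 9 of 12 PPAR-alpha target genes, with a median of 0.02. Without the 4 livers the counts were 8 of 8 B cell and plasma cell genes, 18 of 22 antioxidant genes and 12 of 13 xenobiotic genes, with medians of -0.26, -0.07 and -0.10. Of the 3 erythroid genes 1 was then lower, with a median of 0.15. Of the 14 hepatocyte genes 8 were then lower, with a median of -0.0061. Of the 12 PPAR-alpha target genes 5 were then lower, against 3 with all livers, with a median of 0.08. Of the 14 neutrophil genes 4 were lower with and without the 4 livers, with a median of 0.008 without them. Without the 4 livers the B cell and plasma cell list still reached 6.11 in high livers, so its highest liver stayed in. The part of that liver in the lean was not tested. The genes of a list covary between livers, so these counts are not independent, and over all 22175 tested genes 11885 were lower, with a median of -0.01. In bulk tissue, fewer cells of a type and less RNA per cell cannot be told apart.

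Within the groups, the graded Serpina1d signal was also set against all genes. Among the 20 low livers, 0 of 22175 genes had a limma slope on Serpina1d at an adjusted p under 0.05 (0.0%), and 1007 did at an unadjusted p under 0.05 (4.54%). Among the 30 high livers 2717 did at an adjusted p under 0.05 (12.3%), with 973 positive (4.39%) and 1744 negative (7.86%). Animals 84 and 235 stand apart and have the lowest Serpina1d signals of the high group. Without them 139 genes were called (0.627%), of which 87 were among the 2717, all with the same sign. The 28 livers left are part of the 30, so the 2 fits are not independent and the shared sign is not support. These 87 were 3.2% of the larger set and 62.6% of the smaller. The values of animals 84 and 235, the narrower spread of Serpina1d and the smaller number of livers were not tested apart. The difference between the groups' slopes was not tested.

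Genes that kept a slope without these livers include Hpf1, a partner of PARP enzymes in DNA repair. Hpf1 ran from 4.04 to 5.35 in high livers, with animal 84 at 5.07 and animal 235 at 5.35. Its slope was -1.18 log2 per log2 of Serpina1d (SE 0.14, limma adjusted p = 1.56e-05) and -1.27 without animals 84 and 235 (SE 0.19, limma adjusted p = 0.0014). Slc2a2, the glucose transporter of hepatocytes, had a slope of 1.30 in all high livers and 1.05 without these 2 livers (limma adjusted p = 0.0308). Pemt, which makes phosphatidylcholine, had slopes of 1.41 and 0.95 (limma adjusted p = 0.0383 without them). Of the 10 genes with the smallest p in all high livers, 6 kept their call without these livers, Ube2d1, Zfas1 and Tmpo among them, and 4 did not. Those 4 were Znfx1, with slopes of -1.18 and -0.62 (limma adjusted p = 0.129 without them), Dhdh, with 1.90 and 1.05 (limma adjusted p = 0.0742), Acsm1, with 1.63 and 1.06 (limma adjusted p = 0.0606), and C1rl, with 1.33 and 0.70 (limma adjusted p = 0.131).

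Called slopes of several lists in high livers were fewer without animals 84 and 235. Of 10 cholesterol synthesis genes 8 had a positive called slope in all 30 livers, with a median slope of 1.35, and 0 did without the 2 livers, with a median of 0.04. Over all tested genes 4.39% had a positive and 7.86% a negative called slope in all 30 livers, and 0.627% had a called slope of either sign without the 2 livers, with median slopes of 0.03 and 0.0056. Against that last share, a count of 0 among 10 to 15 genes is near the background. Of 15 lipogenesis genes 7 did, with medians of 1.08 and -0.04, and 0 did without them. Of 13 xenobiotic genes 6 did, with medians of 1.29 and 0.16, and 0 did without them. Of 14 interferon response genes 5 had a negative called slope, with medians of -0.95 and -0.58, and 0 did without them. Of 22 plasma protein genes 10 had a positive called slope, with medians of 0.44 and 0.20, and 1 did without them. Leaving out the 2 livers also narrowed the SD of Serpina1d among high livers from 0.25 to 0.18. The part of this in the loss of calls was not tested.

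**Figure D5:**
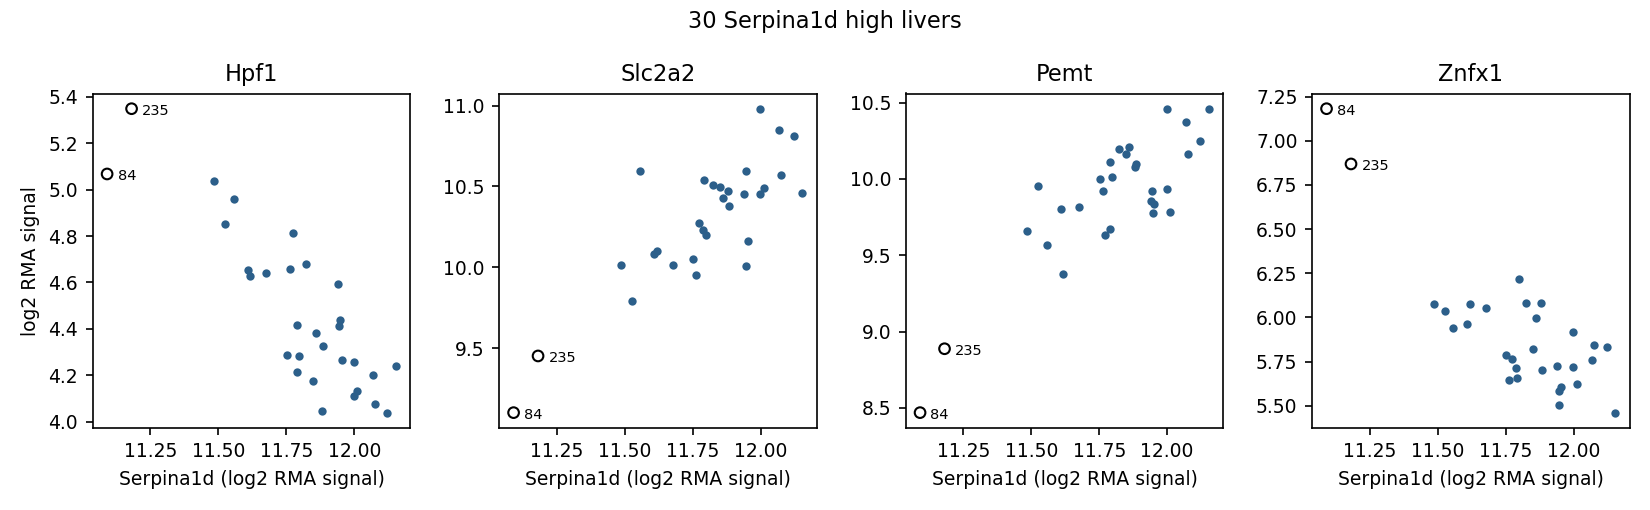
Log2 RMA signal of Hpf1, Slc2a2, Pemt and Znfx1 against the log2 RMA signal of Serpina1d in the 30 high livers, with animals 84 and 235 as open circles. Hpf1 and Znfx1 fall and Slc2a2 and Pemt rise along Serpina1d, and the 2 open circles sit at the low end of Serpina1d.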

How the data were processed

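Each of the 50 livers was hybridised to its own Affymetrix array. The WT Plus kit amplified and labelled 100 ng of RNA, per the labels' protocols, which also speak of purified cell populations although the tissue label is liver. The deposited values are log2 signals. According to the submitters' processing notes they come from RMA, run in Affymetrix Expression Console 1.4.1. RMA normalises by quantiles, so differences in total RNA are removed. The genome build is not given in the sources used here.

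Of 41345 probe sets, 23521 had 1 symbol, 1814 several and 16010 none. The probe set with the highest median stood for each of 22180 genes, and 22175 were tested, with Serpina1d and its 4 copies kept out. Gene order came from a RefSeq table of GRCm38.p6. Groups were compared with limma (version 3.58.1, under R version 4.3.3; functions lmFit and eBayes, eBayes with a trend; two-sided; Benjamini-Hochberg; called at 0.05), with no level filter. Tables were made in Python 3.11.15 with pandas 2.3.3, numpy 2.4.6 and scipy 1.17.1. Steps were tested on simulated data.

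The groups, lists, ranges and livers that stand apart were chosen with earlier results of these data known. The median correlation of each liver was first computed over all genes and then over genes at or above the median level, as in that earlier work. Over all genes the 4 lowest livers were animals 64, 235, 84 and 96, and animal 87 was the sixth. Genes were named by a rule: serpins, the smallest p-values on and off chromosome 12, and leading list members. Tc2n, Fbln5 and Mir1936 were chosen after their values were seen, and so was which of the genes that the rule allows are printed. Alternatives covered probe sets, a level filter, array centring, group boundaries, a continuous Serpina1d value, single livers, animal number, the first array component, robust moderation and a rank test. Fits without animal 161, fits without the 5 livers, fits with the copies or all probe sets, slopes without livers or with the first component, and lists without livers were added after the data were seen.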

Additional observations from a re-analysis of the deposited data

Results flagged for a closer look

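Probe set 17279166, which has no gene symbol in the annotation used, differed between the groups in data outside the test of named genes. It ran from 7.72 to 9.19 in low livers, with a median of 8.50, and from 8.47 to 9.60 in high livers, with a median of 9.34. The difference was -0.79 (SE 0.09, 95% CI -0.96 to -0.62, limma adjusted p = 5.02e-08 over 41340 probe sets, of which 2, 0.00484%, were called). Within the ranges of animal numbers it was -1.17, -0.73, -0.67 and -1.0. Its place in the genome was not determined here.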

How the results depend on the processing

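5033406O09Rik was called under all 14 alternatives, of which 2, the boundaries at log2 8 and 10, gave the same groups and so could not differ, with differences from -0.48 to -0.37 and adjusted p from 3.63e-05 to 0.0174. The count of 1 called gene became 2 with the Wilcoxon test, 2 without animal 161, 3 without animals 64, 84, 87, 161 and 235, 3 with the 4 copies among the tested genes and 2 over all probe sets. The count with the copies follows from the choice of the groups and is not read as a result. On chromosome 12 these counts were 2, 2, 3 and 3. The remaining alternatives left both counts at 1. The 2717 slopes called in high livers became 139 without animals 84 and 235, 632 with the first array component as a covariate and 235 with both. In low livers 0 slopes were called with limma, with animals 64 and 87 (1007 at an unadjusted p under 0.05) or without them (1476). Tc2n depended on animal 161: it was called by the Wilcoxon test and in the 2 fits without that liver, at -0.84, -0.83 and -0.81, and in no other fit. Serpina11 was called only without the 5 livers, at 0.54.

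Among named genes 636 values kept their direction and side of the threshold, 12 moved by more than the spread between livers, 4 newly passed and 20 turned sign, all of the last in genes that were not called. The differences within the 4 ranges of animal numbers carry no test and are not among these 20: of 152 such values for 38 genes, 22 in 15 genes had the opposite sign to the difference over all livers. Serpina6 was -0.91, 1.06, -0.15 and 0.27 in the ranges, Serpina10 -0.52, -0.09, 0.40 and 0.08, Serpina7 0.07, -0.20, 0.53 and 0.92, and Erbb2 -0.16, -0.33, 0.76 and -0.18. Serpina6 turned to -0.068 and Hspa5 to 0.025 on the continuous value. By medians, as given with the Wilcoxon test, Serpina10 turned to -0.0085, Elane to -0.0012, Alb to 0.0001 and Erbb2 to -0.054. Without the 4 livers that stand apart Serpina3n was 0.037, Elane -0.031 and Hspa5 0.068. Without these and animal 161 Serpina3n was 0.039, Elane -0.11, Hspa5 0.071 and Erbb2 -0.090. With the first component Elane was -0.022, Hspa5 0.0065 and Alb 0.0021. Alb was 0.0034 with animal number as a covariate and 0.0042 with its ranges as a block. Without animal 161 Elane was -0.043 and Erbb2 -0.16. The cause of these changes was not tested. No paired analysis was possible because the labels put all livers in 1 group. The number of livers, and single livers such as animals 161, 84 and 235, limit the precision.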
